A study of Mus musculus with 48 samples.

Results

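Male mice of the 5xFAD line were compared by Plcg2 genotype, using 12 of the 48 samples of the series: the 6 males titled 5xFAD and the 6 males titled 5xFAD with a heterozygous Plcg2 knockout (Plcg2+/-) on the nCounter Glial panel. All 757 genes of that panel were used. The samples were cortex RNA of mice aged 7.5 months, per the labels, and a column of the table holds 1 mouse. All 12 males carry the transgenes of the line, which bear inherited Alzheimer disease mutations and are driven in neurons by the Thy1 promoter, so the comparison holds no mouse without those transgenes. The comparison asks what the loss of 1 Plcg2 allele changes in that background. The 12 females of the same genotypes and a table of 760 genes from the Neuropathology panel, whose columns carry the same animal numbers, are used only where they bear on the males.

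PLCG2, phospholipase C gamma 2, is an enzyme found in the brain mainly in microglia, the resident immune cells. Engaged TREM2, colony-stimulating factor 1 and Fc receptors recruit it, and it splits the membrane lipid PIP2 into inositol trisphosphate, which opens calcium stores, and diacylglycerol, which activates protein kinase C. Around amyloid plaques microglia lower their resting genes and raise a plaque-associated set, and rare human variants of the enzyme alter the risk of Alzheimer disease.

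Neither Plcg2 nor Xist nor a Y-linked gene was among the genes measured, so genotype and sex rest on the labels. The 5xFAD males are numbered 1177 to 1270 and the Plcg2+/- males 3 to 48, and whether each genotype came as its own cohort or run is not given in the sources used here: such a cohort and the genotype cannot be told apart. Values are log2 normalized counts, which were converted back to normalized counts for the levels given here. Total counts recovered from the values were 1428825 to 1775622 in 5xFAD males and 1360757 to 1814975 in Plcg2+/- males, with means of 1626764 and 1632266 (difference 5502, exact permutation test, two-sided, p = 0.944). The smallest count of any gene was 1 to 3 in 5xFAD males and 3 to 4 in Plcg2+/- males. The summed level of the 65 genes with a mean under 20 normalized counts, called dim here, was 723 to 829 in 5xFAD males and 874 to 1056 in Plcg2+/- males, without overlap. Neurons, astrocytes, oligodendrocytes and microglia of the cortex were present by their markers: Slc17a7 was at 5855 to 7844 normalized counts in 5xFAD males and 5967 to 7033 in Plcg2+/- males, Gfap at 3583 to 5680 and 4267 to 5477, and Csf1r at 1116 to 1659 and 1379 to 1737. Of the 3 T cell markers Cd3d was at 3.21 to 13.2 in 5xFAD males and 12.3 to 33.1 in Plcg2+/- males, Cd8a at 6.41 to 9.13 and 8.50 to 19.1, and Cd3e at 3.04 to 10.6 and 3.36 to 9.54. Neither choroid plexus marker was measured. Because the tissue is bulk cortex, fewer cells of a type and less RNA per cell cannot be told apart.

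One mouse of the Plcg2+/- group, number 3, stood apart from the other 5. With it left out, 404 genes differed between the genotypes, and in 321 of them (79.5%) number 3 lay nearer the 5xFAD mean than the mean of its own group, beyond the 5xFAD mean in 194. For the other Plcg2+/- males the same share was 5.18% to 23.4%, highest in number 48, and for the 5xFAD males 7.17% to 16.6%. On the Neuropathology panel the share for number 3 was 79.3%, 391 of 493 genes, against 2.86% to 9.74% for its group and 3.06% to 16.9% for 5xFAD males. By deviations from the mean of the 12 males, number 3 on one panel correlated better with number 3 on the other (r = 0.542 across 236 genes) than with any other male, and its r with the other Plcg2+/- males was -0.38 to -0.287. Number 3 had the lowest total count of the 12 males on the Glial panel, 1360757, and the highest on the Neuropathology panel, 1587858. Its value stood apart from its group by Dixon's criterion in 84 of the 757 Glial genes, against 1 to 6 genes for each other male. Counts over all genes are therefore given with and without it, and values of single genes without it where it moved the call or the difference.

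**Figure D1:**
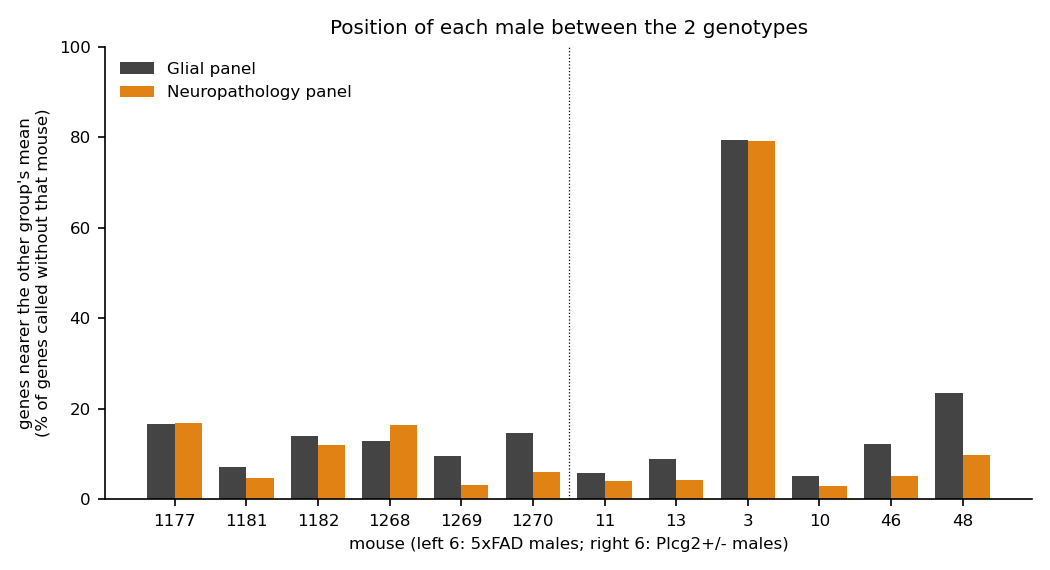
Bars show, for each male (x axis, animal number, 5xFAD on the left and Plcg2+/- on the right), the percentage of genes in which it lay nearer the mean of the other genotype, among the genes called with that mouse left out, on the Glial panel (dark) and the Neuropathology panel (orange). Number 3 reached 79.5% and 79.3%, and every other male stayed at or under 23.4%.

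Differences are the mean log2 value of Plcg2+/- males minus that of 5xFAD males, with the standard error of a limma fit over all 24 mice, and a gene was called at a Benjamini-Hochberg adjusted p under 0.05 over 757 genes. By this test 308 genes (40.7%) differed in males, of which 130 (17.2%) rose and 178 (23.5%) fell. These shares over all genes are the background for the counts of each gene list below. Most changes were small: the median size among called genes was 0.306, and 64 exceeded 0.5. Across all genes the median difference was -0.0017, across dim genes 0.469 and across the others -0.025, and dim genes gave 11 of the rises and 0 of the falls. Without number 3 the count was 404 (53.4%), with 199 (26.3%) higher and 205 (27.1%) lower, and 301 genes were called the same way in both fits. The balance of directions depended on scaling: rises were 42.2% of the calls as deposited, 55.4% (185 higher, 149 lower) with each mouse centred on its median and 53.1% (173 and 153) after quantile normalization, while these scalings moved the median gene by 0.0365 and 0.0384. The 2 groups did not overlap in 69 genes (9.11%), 15 higher and 54 lower, and without number 3 in 248 genes (32.8%), 104 higher and 144 lower.

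**Figure D2:**
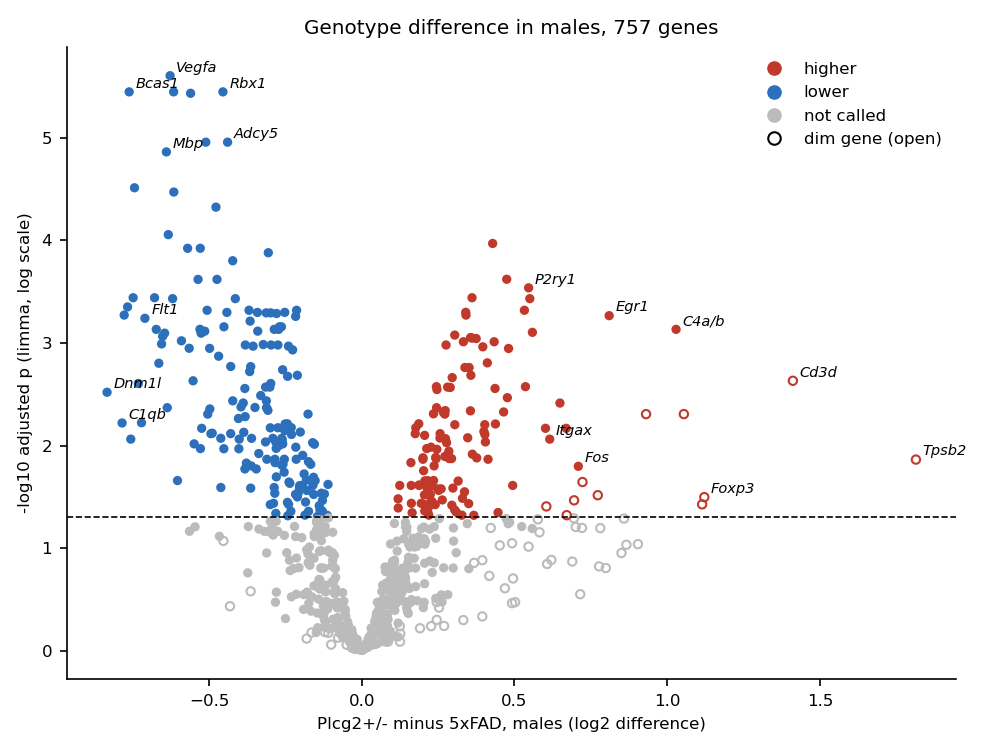
Each point is 1 of 757 genes, with the log2 difference between Plcg2+/- and 5xFAD males on the x axis and -log10 of the adjusted p on the y axis (dashed line at 0.05, open points for dim genes). Calls lie on both sides, 130 higher and 178 lower, the smallest adjusted p are on the lower side (Vegfa, Bcas1, Rbx1), and the rises above 1 other than C4a/b are dim genes.

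The 5 smallest p-values in males all belonged to genes that were lower in Plcg2+/- mice, and in all 5 the groups did not overlap. They were Vegfa, the growth factor of blood vessels, Bcas1, a marker of newly forming oligodendrocytes, Tmsb4x, which binds actin monomers, Rbx1, the RING subunit of cullin ubiquitin ligases, and Fth1, the heavy chain of the iron store ferritin. Vegfa was at 736, 817 and 905 normalized counts (lowest, median, highest) in 5xFAD males and at 491, 530.1 and 564 in Plcg2+/- males. The highest Plcg2+/- value, 564, was that of number 3 and still lay below every control. The difference was -0.63 ± 0.067, or 1.54-fold lower (adjusted p = 2.48e-06), and -0.65 without number 3.

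Tmsb4x was the second most abundant of these, at 29510, 32322 and 34926 in 5xFAD males and 19154, 20976 and 23414 in Plcg2+/- males. Here number 3 had the lowest value of all 12 males, 19154. The difference was -0.62 ± 0.073 (adjusted p = 3.56e-06) and -0.59 without number 3. Fth1 stood at 56286, 58155 and 64672 in 5xFAD males and 36351, 39547 and 44934 in Plcg2+/- males. The difference of -0.56 ± 0.067 (adjusted p = 3.68e-06) was -0.57 without number 3, and quantile normalization reduced it to -0.17 with an adjusted p of 0.0725. Number 3, at 41696, lay within its own group for this gene. Bcas1 was at 1212, 1332 and 1530 in 5xFAD males against 708, 765 and 944 in Plcg2+/- males (-0.76 ± 0.087, adjusted p = 3.56e-06), and Rbx1 at 2339, 2420 and 2632 in 5xFAD males against 1700, 1777 and 1908 in Plcg2+/- males (-0.45 ± 0.053, adjusted p = 3.56e-06). For both genes number 3 was the highest of the Plcg2+/- males and still below the lowest control.

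**Figure D3:**
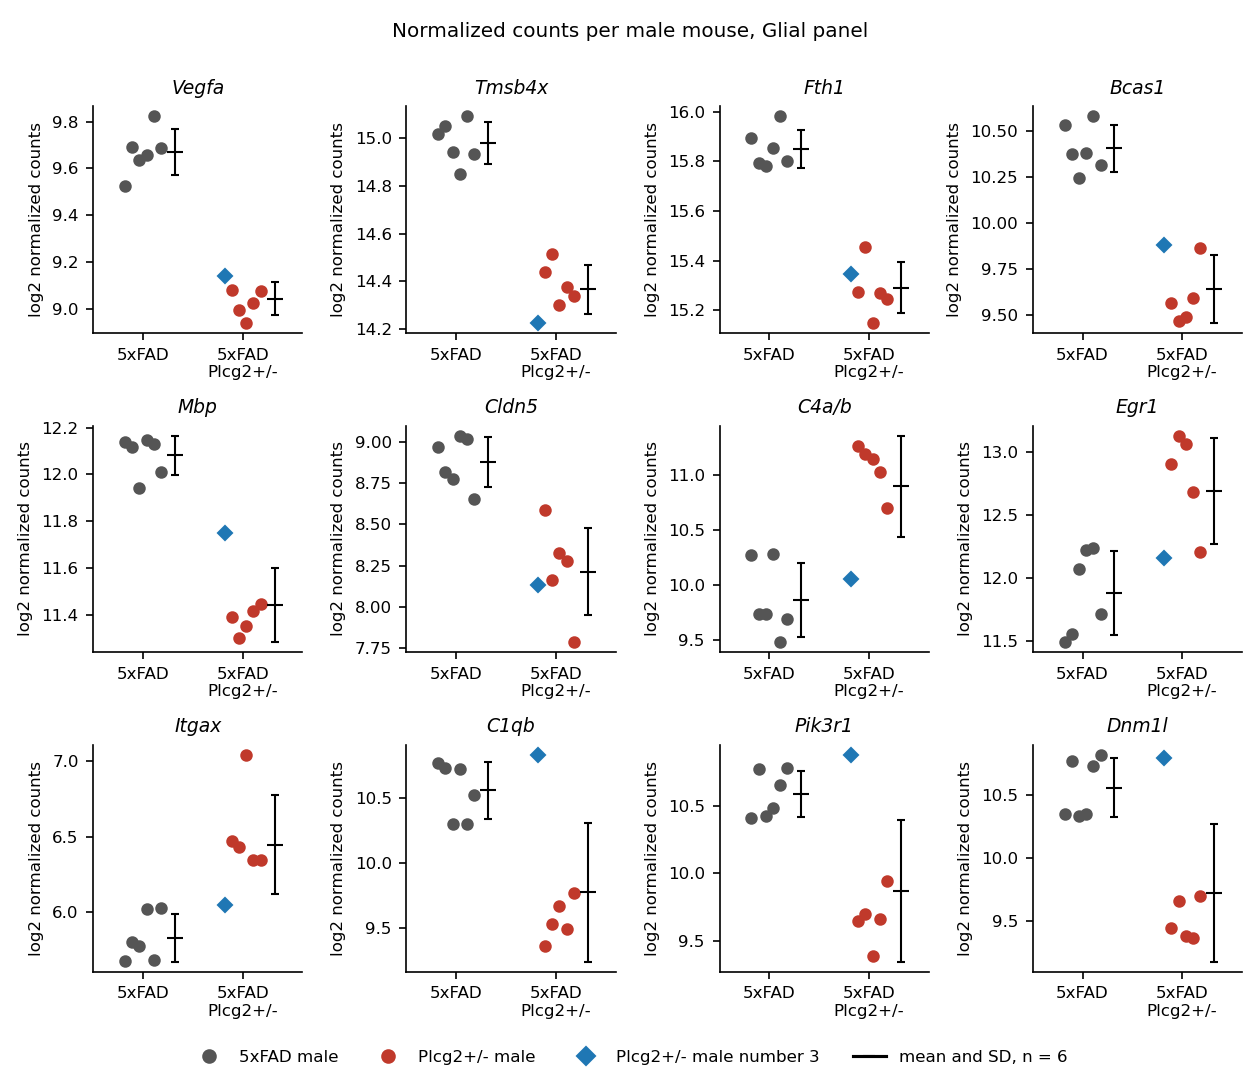
Points are the log2 normalized counts of each male for 12 genes (5xFAD grey, Plcg2+/- red, number 3 as a blue diamond), with the mean and SD of 6 mice beside each group. In Vegfa, Tmsb4x, Fth1, Bcas1, Mbp and Cldn5 number 3 lies below every 5xFAD male, and in C4a/b, Egr1, C1qb, Pik3r1 and Dnm1l it lies within or above the 5xFAD range.

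Vessel genes that passed the test were mostly lower. Of 15 measured genes of endothelium, barrier and mural cells 8 fell, 1 rose and 6 were not called, with a median of -0.30. The share called was 60%, against 40.7% over all genes. After centring and after quantile normalization 6 fell and 2 rose. The summed level of the list was 5932 to 6734 normalized counts in 5xFAD males and 4823 to 5904 in Plcg2+/- males, without overlap. Vegfa, whose levels are given above, belongs to this list and counts among the 8 falls and in the sum. The gap between the groups in the sum was smaller than the fall in Vegfa, and the sum without Vegfa was not taken. Cldn5, the claudin that seals the tight junctions of brain endothelium, was at 403, 475 and 525 in 5xFAD males and 221, 299 and 384 in Plcg2+/- males. Number 3, at 280.2, was among the lower Plcg2+/- mice. The difference was -0.66 ± 0.15 (adjusted p = 0.00158). Emcn, a sialomucin of the endothelial surface, was at 89.3, 93.2 and 100.3 in 5xFAD males against 63.3, 65.6 and 76.2 in Plcg2+/- males (-0.48 ± 0.07, adjusted p = 4.74e-05), again without overlap. Flt1, the VEGF receptor 1, was at 140.0, 173 and 187 in 5xFAD males against 89.7, 91.1 and 143 in Plcg2+/- males (-0.71 ± 0.14, adjusted p = 0.000574), and its groups met at a single Plcg2+/- mouse at 143. Pecam1, an adhesion molecule of endothelial junctions, fell by 0.40 (adjusted p = 0.00865) with no overlap, Esam fell by 0.34 (adjusted p = 0.012), and Abcb1a, the drug efflux pump P-glycoprotein, fell by 0.30 (adjusted p = 0.0376) but was at -0.23 with an adjusted p of 0.0818 without number 3. The 1 rise as deposited was Cspg4, which pericytes share with oligodendrocyte precursors. Of the 8 genes of this list called without number 3, that mouse lay nearer the 5xFAD mean in only 2, against 79.5% over all such genes.

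Precursor genes of the oligodendrocyte lineage that passed the test on the Glial panel rose, while mature genes went both ways. Of 6 measured precursor genes 4 rose and 0 fell (median 0.34). The share called was 66.7%, against 40.7% over all genes, and 3 rose without number 3. On the Neuropathology panel 2 genes of this list were measured, of which 0 rose and 1 fell. Pdgfra, the growth factor receptor that marks precursors, was at 402, 465 and 522 in 5xFAD males and 415, 662 and 761 in Plcg2+/- males (0.40 ± 0.12, adjusted p = 0.00922). The lowest of the Plcg2+/- values, 415, was number 3, and the other 5 lay above every control. Ptprz1, a receptor phosphatase, changed by 0.41 ± 0.13 (adjusted p = 0.0136) and Cspg4, the proteoglycan NG2, by 0.35 ± 0.13 (adjusted p = 0.0368), and in both number 3 was again the lowest of its group. Gpr17, a receptor of precursors about to differentiate, passed at an adjusted p of 0.0477 with number 3 and not without it (0.0514).

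Of 18 mature oligodendrocyte and myelin genes 3 fell, 2 rose and 13 were not called (27.8% called, median 0.028). The balance turned without number 3 (5 rose and 3 fell) and after centring or quantile normalization (4 and 3 in both). Mbp, myelin basic protein, was at 3939, 4462 and 4532 in 5xFAD males and 2520, 2707 and 3443 in Plcg2+/- males. All 6 Plcg2+/- males were below the lowest control, with number 3 the nearest at 3443. The difference was -0.64 ± 0.085 (adjusted p = 1.37e-05). Gal3st1, which makes the myelin lipid sulfatide, was at 95.4, 109 and 138 in 5xFAD males against 63.5, 70.5 and 94.2 in Plcg2+/- males (-0.59 ± 0.12, adjusted p = 0.000952), also without overlap. Ugt8a, which makes the galactosylceramide that sulfatide derives from, went the other way, with 444 to 530.2 in 5xFAD males against 412 to 704 in Plcg2+/- males (0.34 ± 0.12, adjusted p = 0.0282), with number 3 alone at or under the controls. The other rise was Gsn, the actin-severing protein gelsolin. Mog, a further myelin gene, did not pass the test (0.055 ± 0.068).

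Cullin ligase and actin genes were mostly lower. All 7 measured cullin ligase and ubiquitin genes were called, 6 lower and 1 higher (median -0.45). Eloc, elongin C, the adaptor of cullin 2 ligases, was at 2470, 2968 and 3431 in 5xFAD males and 1414, 1647 and 2719 in Plcg2+/- males (-0.75 ± 0.13, adjusted p = 0.000362). Number 3, at 2719, lay inside the control range, and the other 5 at 1414 to 1817 did not. Cul2 changed by -0.68 ± 0.12 (adjusted p = 0.000362), Cul1 by -0.49 ± 0.14 (adjusted p = 0.00757), and Skp1a, the adaptor of cullin 1 ligases, by -0.41 ± 0.075 (adjusted p = 0.000369). The exception was Btrc, a substrate receptor, which rose. Of 5 proteasome genes (60% called, median -0.12) 2 fell and 1 rose. Psma5, a subunit of the core ring, showed the clearest change: 1220, 1340 and 1509 against 874, 955 and 1031, without overlap (-0.51 ± 0.066, adjusted p = 1.1e-05). Psmc6, a subunit of the regulatory ring, fell by 0.20 as deposited (adjusted p = 0.026) but did not pass after centring or quantile normalization.

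Among 9 actin regulators 6 fell and 1 rose (77.8% called, median -0.30). The summed level was 58716 to 66323 against 46933 to 51410, a sum of which Tmsb4x alone made up 29510 to 34926 and 19154 to 23414. Besides Tmsb4x these included Arpc5l and Arpc1a, subunits of the Arp2/3 complex that nucleates actin branches. Arpc5l was at 1174, 1330 and 1418 in 5xFAD males against 777, 879 and 1242 in Plcg2+/- males (-0.51 ± 0.1, adjusted p = 0.000767). Number 3 alone of the Plcg2+/- males, at 1242, was inside the control range. Pak1, a kinase that acts below Rac and Cdc42, changed by -0.30 ± 0.072 (adjusted p = 0.00269).

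Mitochondrial and proton pump genes were mostly lower where called. Of 8 genes of respiration, carriers and fission 5 fell and 0 rose (62.5% called, median -0.17). Dnm1l, the GTPase of mitochondrial fission, had the lowest difference among genes that are not dim: it was at 1292, 1501 and 1800 in 5xFAD males and 660.1, 752 and 1773 in Plcg2+/- males. The highest value in the second group was number 3, and the other 5 lay at 660.1 to 830.4, under every control. The difference was -0.83 ± 0.2 (adjusted p = 0.00302) with number 3 and -1.05 (adjusted p = 1.45e-05) without it. Opa1, which fuses inner membranes, changed by -0.50 ± 0.13 (adjusted p = 0.0044), Slc25a4, the ADP/ATP carrier, by -0.47 ± 0.081 (adjusted p = 0.00024), and Atp5b, a subunit of ATP synthase, by -0.22 ± 0.063 (adjusted p = 0.0104, 0.1 after quantile normalization). Of 9 subunits of the V-ATPase, the pump that acidifies lysosomes and synaptic vesicles, 5 fell and 1 rose (66.7% called, median -0.12). After centring 3 fell. Atp6v1e1 was at 4920, 5003 and 5501 in 5xFAD males against 3155, 3357 and 4704 in Plcg2+/- males (-0.53 ± 0.084, adjusted p = 0.000119), and Atp6v1h changed by -0.47 ± 0.1 (adjusted p = 0.00135). Atp6v1a, the catalytic subunit, rose by 0.24 (adjusted p = 0.0376). Of 4 ferritin and oxidative defence genes Fth1 and Sod1, superoxide dismutase 1 (-0.42 ± 0.069, adjusted p = 0.000158), fell, and Hmox1, the heme-degrading enzyme, rose, with 88.0 to 114 in 5xFAD males against 109.8 to 168 in Plcg2+/- males (0.55 ± 0.099, adjusted p = 0.000369). For Hmox1 the lowest Plcg2+/- mouse, number 3, was the only one inside the control range.

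Microglial identity genes did not move as a block. Of 10 pan-microglial genes 2 fell, 0 rose and 8 were not called (20% called, median -0.11), and 4 fell without number 3. Aif1, the actin-binding protein IBA1, was at 355, 390.1 and 504 in 5xFAD males and 209.9, 216 and 358 in Plcg2+/- males. The highest value of the second group, 358, was number 3, and the other 5 at 209.9 to 223 lay below all controls. The difference was -0.77 ± 0.14 (adjusted p = 0.000445). Spi1, the transcription factor PU.1, changed by -0.29 ± 0.082 (adjusted p = 0.0085). Csf1r, the receptor microglia need to survive, was not called at 0.14 ± 0.088 (adjusted p = 0.194), but passed after quantile normalization (0.24, adjusted p = 0.0263), and Itgam was not called.

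Of 22 homeostatic genes 2 rose and 6 fell (median -0.067), a share called of 36.4% against 40.7% over all genes. The split depended on scaling, 5 and 3 after centring and 3 and 4 after quantile normalization. Mertk, a receptor for the engulfment of dying cells, was at 251, 294 and 309.6 in 5xFAD males and 326, 380.1 and 490.3 in Plcg2+/- males. All 6 Plcg2+/- males, number 3 included, were above the highest control (0.41 ± 0.091, adjusted p = 0.00156). Pros1, protein S, a ligand of that receptor, changed by -0.46 ± 0.13 (adjusted p = 0.00849), and Bin1, an adaptor of endocytosis in a locus linked to Alzheimer risk, by -0.32 ± 0.068 (adjusted p = 0.00103). Tmem119, a surface marker of resting microglia, rose by 0.49 (adjusted p = 0.0245), and P2ry12 did not pass at 0.17 ± 0.09 (adjusted p = 0.126), but did after centring (0.0371).

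Plaque-associated genes went both ways, with more falls than rises as deposited. Of 27 measured, 7 fell, 2 rose and 18 were not called (median -0.12). The share called was 33.3%, against 40.7% over all genes, and 4 rose and 6 fell after centring, 4 and 5 after quantile normalization, and 4 and 10 without number 3. The summed level was 105067 to 119900 in 5xFAD males and 83030 to 96729 in Plcg2+/- males, a sum to which the abundant Fth1 contributes most. Cd9, a tetraspanin, was at 916, 1029 and 1152 in 5xFAD males and 570.4, 663 and 807 in Plcg2+/- males. The groups did not overlap, and number 3, at 807, was the highest of its group (-0.62 ± 0.088, adjusted p = 3.37e-05). Apoe, the lipid carrier, was at 8322, 9132 and 10549 in 5xFAD males against 5836, 6217 and 9018 in Plcg2+/- males (-0.49 ± 0.14, adjusted p = 0.00765), and here number 3, at 9018, was within the controls. Lgals3, galectin 3, changed by -0.64 ± 0.16 (adjusted p = 0.00427) and was lowest in number 3. Itgax, the integrin CD11c, which marks microglia at plaques, went the other way, with 51.1, 55.3 and 65.3 normalized counts in 5xFAD males against 66.1, 83.8 and 132 in Plcg2+/- males (0.62 ± 0.18, adjusted p = 0.00865), with every Plcg2+/- male above every control. Clec7a, another marker of plaque microglia, did not pass at -0.30 ± 0.12 (adjusted p = 0.0548), but did without number 3 (-0.38, adjusted p = 0.0125).

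Around PLCG2 itself, 10 genes of immune receptor signalling were measured, of which 4 fell and 1 rose (median -0.16). The share called was 50%, against 40.7% over all genes. Without number 3, where 53.4% of all genes were called, 7 fell and 1 rose. Trem2, the receptor upstream, was at 434, 521 and 668 in 5xFAD males and 323, 407 and 634 in Plcg2+/- males. It was not called with number 3 (-0.31 ± 0.16, adjusted p = 0.111) and was called without it (-0.43, adjusted p = 0.0207). Number 3, at 634, was the highest of its group and inside the control range. On the Neuropathology panel Trem2 was just called lower with number 3 (-0.37, adjusted p = 0.04999), and was at -0.50 (adjusted p = 0.00242) without it. Tyrobp, its adaptor DAP12, was called lower (-0.29 ± 0.11, adjusted p = 0.0365) but did not pass after centring (0.0526) or quantile normalization (0.0888). Pik3r1, the regulatory subunit of PI3-kinase, was at 1366, 1526 and 1767 in 5xFAD males against 669, 822 and 1883 in Plcg2+/- males (-0.72 ± 0.19, adjusted p = 0.00599). Number 3, at 1883, exceeded every control, and the other 5 at 669 to 983 lay below every control (-0.92, adjusted p = 3.35e-05). Akt1, a kinase activated by the product of PI3-kinase, changed by -0.24 ± 0.051 (adjusted p = 0.00107) without overlap, and Grb2, an adaptor, by -0.17 ± 0.054 (adjusted p = 0.0143, and -0.10 with an adjusted p of 0.0749 after quantile normalization). Itpr1, the calcium channel opened by inositol trisphosphate, rose, with 4190 to 4711 in 5xFAD males against 4236 to 5869 in Plcg2+/- males (0.27 ± 0.07, adjusted p = 0.00493).

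Complement genes split between the C1q chains and C4. Of 11 measured, C1qa, C1qb and C1qc fell, C4a/b and the dim gene Cfi rose, and 6 were not called (Cfi did not pass after quantile normalization, at an adjusted p of 0.291). The share called was 45.5%, against 40.7% over all genes, and the median was -0.04 (0.0014 after quantile normalization). The 3 C1q chains assemble into the recognition part of the classical pathway, made in the brain by microglia, and C4 is cleaved just below it. C1qb was at 1260, 1581 and 1750 normalized counts in 5xFAD males and 657, 776 and 1821 in Plcg2+/- males. Number 3 had the highest value of all 12 males, and the other 5, at 657 to 870.1, lay below every control. The difference was -0.78 ± 0.21 (adjusted p = 0.00602), and -1.0 (adjusted p = 5.09e-05) without number 3. C1qc was at 1411, 1707 and 1897 in 5xFAD males against 848, 1008 and 1644 in Plcg2+/- males (-0.65 ± 0.13, adjusted p = 0.000802), and C1qa at 1861, 2249 and 2738 in 5xFAD males against 1188, 1495 and 2418 in Plcg2+/- males (-0.52 ± 0.14, adjusted p = 0.00679), with number 3 again the highest of its group and inside the control range. C4a/b, a probe that does not tell the 2 genes apart, was at 715, 852 and 1247 in 5xFAD males against 1063, 2172 and 2454 in Plcg2+/- males (1.03 ± 0.21, 2.04-fold, adjusted p = 0.000736). There number 3, at 1063, was the lowest of its group and inside the control range, and the other 5 at 1663 to 2454 lay above it.

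Because the C1q chains moved together, the promoters of C1qb and C1qc are shown, from 250 bases before to 50 after the start of the gene in RefSeq (build GRCm38.p6), together with that of Fos, an activity-dependent gene described with the neuronal genes. C1qb lies at chr4:136886151-136886450 and C1qc at chr4:136892865-136893164, both on the minus strand, and Fos at chr12:85473640-85473939 on the plus strand. Capitals mark GAGGAA, a core bound by PU.1 and other ETS factors, on either strand in the C1q promoters (TTCCTC is its other strand), and TGACG, part of the cAMP response element, in the Fos promoter:
C1qb: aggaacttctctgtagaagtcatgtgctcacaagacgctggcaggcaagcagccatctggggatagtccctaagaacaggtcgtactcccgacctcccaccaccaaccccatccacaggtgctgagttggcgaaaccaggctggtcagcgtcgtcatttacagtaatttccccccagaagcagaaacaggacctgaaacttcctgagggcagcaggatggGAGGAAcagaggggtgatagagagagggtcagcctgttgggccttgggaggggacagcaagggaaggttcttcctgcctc
C1qc: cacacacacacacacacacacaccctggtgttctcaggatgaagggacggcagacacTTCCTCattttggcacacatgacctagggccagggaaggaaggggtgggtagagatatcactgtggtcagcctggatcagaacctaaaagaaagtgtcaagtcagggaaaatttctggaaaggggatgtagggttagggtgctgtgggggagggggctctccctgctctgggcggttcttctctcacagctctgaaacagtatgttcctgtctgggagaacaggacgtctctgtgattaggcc
Fos: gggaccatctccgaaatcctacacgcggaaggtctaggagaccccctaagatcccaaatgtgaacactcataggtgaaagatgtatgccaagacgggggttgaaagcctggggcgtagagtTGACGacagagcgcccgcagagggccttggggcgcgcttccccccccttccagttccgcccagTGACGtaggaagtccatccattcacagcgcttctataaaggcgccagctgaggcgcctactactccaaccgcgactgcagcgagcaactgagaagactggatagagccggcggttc
GAGGAA occurred once in each C1q window and in 28.3% of 32851 RefSeq promoters of this length, and TGACG occurred at 2 places in the Fos window and in 20.8% of promoters. Both motifs were searched on both strands, they do not overlap, and a match describes letters, not binding. In the printed windows GAGGAA was marked only for the C1q genes and TGACG only for Fos. The C1qb window also holds CGTCA, the other strand of TGACG, which is not marked.

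Fewer genes were called in the other immune lists. The share was 25% for interferon response, 14.3% for antigen presentation and 22.2% for cytokine and NF-kB genes, against 40.7% over all genes. Of 8 interferon response genes (median 0.078) 2 fell and 0 rose, the falls being Gbp2, a guanylate-binding protein (-0.55 ± 0.16, adjusted p = 0.00963), and Ifnar1, an interferon receptor chain (adjusted p = 0.0291, 0.166 after centring). Among 7 antigen presentation genes (median -0.13) H2-T23, a nonclassical MHC class I gene, fell (-0.36 ± 0.1, adjusted p = 0.0085), and Cd74, the invariant chain of MHC class II, was not called and ranged widely, 306 to 969.8 in 5xFAD males and 285 to 768 in Plcg2+/- males. Of 18 cytokine and NF-kB genes (median 0.008, and -0.064 after quantile normalization) 3 fell and 1 rose, and 6 and 3 without number 3. The chemokine Ccl12 was at 63.4, 90.2 and 106 in 5xFAD males against 42.6, 58.9 and 75.1 in Plcg2+/- males (-0.66 ± 0.14, adjusted p = 0.00102), Ccl3 changed by -0.40 ± 0.12 (adjusted p = 0.0107) and Il18 by -0.26 ± 0.074 (adjusted p = 0.00885). Ptgs2, cyclooxygenase 2, rose by 0.33 (adjusted p = 0.0327).

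Of 13 lysosomal genes (23.1% called, median -0.027, and 0.0099 after centring) 3 fell and 0 rose. The split became 3 and 3 without number 3 and 4 and 2 after quantile normalization. The falls were Lamp1, a membrane protein (-0.25 ± 0.069, adjusted p = 0.00712), the protease Ctsb (-0.25 ± 0.082, adjusted p = 0.0182) and the protease inhibitor Cst3 (-0.23 ± 0.09, adjusted p = 0.0438, 0.0675 after centring). Of 14 lipid genes (50% called, median -0.16) 5 fell and 2 rose, and 7 and 5 without number 3. Beside Apoe the falls included Hadh, an enzyme of fatty acid oxidation, at 240.2, 257 and 277 in 5xFAD males against 190.2, 199 and 231 in Plcg2+/- males without overlap (-0.34 ± 0.069, adjusted p = 0.000766), and Dlat, a subunit of pyruvate dehydrogenase (-0.38 ± 0.092, adjusted p = 0.00277). Acly, which makes acetyl-CoA for lipid synthesis, rose, with 1711 to 2007 in 5xFAD males against 1830 to 2629 in Plcg2+/- males (0.36 ± 0.082, adjusted p = 0.00206), with number 3 the lowest of its group.

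Few astrocyte genes passed the test, 28.6% of the identity list and 23.1% of the reactive list, against 40.7% over all genes. Of 7 identity genes (median 0.056) 2 fell and 0 rose: S100b, a calcium-binding protein (-0.51 ± 0.094, adjusted p = 0.00048), and Sox9, a transcription factor (-0.28 ± 0.1, adjusted p = 0.0291). Aqp4 and Slc1a3, the water channel and glutamate transporter, were not called (adjusted p = 0.164 and 0.138), but both passed after quantile normalization (0.036 and 0.0238). Of 26 reactive genes (median -0.055) 4 fell and 2 rose. Serpina3n, a protease inhibitor raised in reactive astrocytes, was at 66.3, 78.7 and 106 in 5xFAD males and 101, 129 and 139.8 in Plcg2+/- males (0.60 ± 0.16, adjusted p = 0.00679). Vim, the filament protein vimentin, changed by -0.38 ± 0.1 (adjusted p = 0.00522), and Gfap was not called.

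Neuronal genes changed in both directions. Of 23 glutamate receptor and synapse genes 7 rose and 6 fell (56.5% called, median 0.057). Grm2, a presynaptic glutamate receptor, was at 534, 589.9 and 688 in 5xFAD males against 396, 437 and 455 in Plcg2+/- males, without overlap (-0.45 ± 0.089, adjusted p = 0.000695). Gria1, an AMPA receptor subunit, changed by -0.34 ± 0.064 (adjusted p = 0.000503). Of 10 genes of inhibitory neurons (70% called, median 0.0042) 3 rose and 4 fell. The rises were both GABA-synthesizing enzymes, Gad1 (0.34 ± 0.076, adjusted p = 0.00173) and Gad2 (0.27 ± 0.07, adjusted p = 0.00456), and the interneuron transcription factor Dlx2, at 38.5, 45.5 and 49.6 in 5xFAD males against 51.6, 70.4 and 94.4 in Plcg2+/- males without overlap (0.65 ± 0.16, adjusted p = 0.00385). The falls were GABA-A receptor subunits, among them Gabra4 (-0.37 ± 0.084, adjusted p = 0.0019) and Gabra3 (-0.35 ± 0.088, adjusted p = 0.00425). On the Neuropathology panel both lists had more falls as deposited. There 2 rose and 10 fell of 16 inhibitory genes, and 7 rose and 17 fell of 31 glutamate receptor and synapse genes. Over all 760 genes of that panel 140 rose and 291 fell.

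Of 4 activity-dependent genes (median 0.37) Egr1 and Fos, immediate early transcription factors, rose, and Jun and Bdnf were not called. Egr1 was at 2882, 3835 and 4823 in 5xFAD males and 4565, 7130 and 8965 in Plcg2+/- males. The groups touched at 2 Plcg2+/- mice, number 3 at 4565 and another at 4736, both under the highest control. The difference was 0.81 ± 0.16 (adjusted p = 0.000541) and 0.92 without number 3. Fos was at 139, 184 and 342 in 5xFAD males against 229, 327 and 452 in Plcg2+/- males (0.71 ± 0.22, adjusted p = 0.0159).

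Of 6 cAMP genes (83.3% called, median -0.18) 4 fell and 1 rose. Both measured adenylyl cyclases, the enzymes that make cAMP, fell on the Glial panel without overlap: Adcy5, with 1605 to 1972 in 5xFAD males against 1238 to 1476 in Plcg2+/- males (-0.44 ± 0.057, adjusted p = 1.1e-05) and Adcy1, with 1817 to 2117 in 5xFAD males against 1340 to 1690 in Plcg2+/- males (-0.37 ± 0.069, adjusted p = 0.00048). On the Neuropathology panel Adcy5 was called the other way, at 0.40 (adjusted p = 0.00287). Gnai1, an inhibitory G protein, rose by 0.25 (adjusted p = 0.00284). Of 11 axon and cytoskeleton genes (54.5% called, median -0.18) 6 fell and 0 rose, and the summed level was 48276 to 52196 against 42148 to 46132, without overlap. Map2, a dendritic microtubule protein, was at 5527, 6429 and 7168 in 5xFAD males against 3592, 3995 and 6733 in Plcg2+/- males (-0.56 ± 0.12, adjusted p = 0.00113), and Ina, alpha-internexin, at 2613, 2874 and 3191 in 5xFAD males against 1711, 1826 and 2956 in Plcg2+/- males (-0.55 ± 0.13, adjusted p = 0.00234). In both genes number 3 alone of its group was inside the control range. Stmn1, which destabilizes microtubules, did not overlap (-0.25 ± 0.047, adjusted p = 0.000503). Of 5 potassium channel genes (40% called, median 0.16) 2 rose, Kcnd2 and Kcnq3 (adjusted p = 0.0452 and 0.0351), and 3 without number 3. On the Neuropathology panel 4 genes of this list were measured, of which 1 rose and 3 fell. Of 5 adaptors of the 14-3-3 family (20% called, median 0.034) Ywhae fell, by 0.11 (adjusted p = 0.0239, 0.115 after centring). Of 10 genes of amyloid processing, tau kinases and Alzheimer risk (70% called, median 0.034) 3 rose and 4 fell, and 4 and 2 after quantile normalization. The Neuropathology panel held 16 genes of this list, of which 1 rose and 6 fell. On the Glial panel Aplp2, a relative of the amyloid precursor, was at 9383 to 11570 and 9152 to 14623 (0.29 ± 0.088, adjusted p = 0.0134), and the tau kinase Gsk3b changed by -0.26 ± 0.075 (adjusted p = 0.00963).

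Genes of blood cells were near the lower end of the assay. Of 27 lymphocyte genes 24 were dim, 6 rose and 0 fell (22.2% called, median 0.50, against 0.469 over all dim genes). After quantile normalization the median was 0.049, 2 rose and 1 fell. The summed level of the list was 493 to 581 in 5xFAD males and 566 to 756 in Plcg2+/- males. Cd3d, one of the CD3 signalling chains of T cells, was at 3.21, 7.64 and 13.2 normalized counts in 5xFAD males and 12.3, 17.5 and 33.1 in Plcg2+/- males (1.41 ± 0.33, adjusted p = 0.00234). Cd3e, its partner, was not called (0.61 ± 0.33, adjusted p = 0.143). Foxp3, the factor of regulatory T cells, was at 1.13, 4.05 and 6.41 in 5xFAD males against 3.68, 8.08 and 13.5 in Plcg2+/- males (1.12 ± 0.41, adjusted p = 0.0318), but at 0.28 (adjusted p = 0.553) after quantile normalization. Of 10 genes of mast cells, neutrophils, monocytes and border macrophages (20% called, median 0.23, and -0.11 after quantile normalization) 2 rose and 0 fell. After quantile normalization 0 rose. Tpsb2, a mast cell tryptase, was at 0.946, 1.53 and 4.06 in 5xFAD males against 2.83, 6.63 and 13.4 in Plcg2+/- males (1.81 ± 0.56, adjusted p = 0.0137, and 0.53 with an adjusted p of 0.338 after quantile normalization), while Tpsab1 and Hdc, further mast cell genes, were not called. Other dim genes with the highest differences were Ceacam3, at 1.05 ± 0.27 (adjusted p = 0.00493, and 0.0783 after quantile normalization), and Eomes, a factor of cytotoxic lymphocytes, at 1.11 ± 0.42 (adjusted p = 0.0374, 0.0651 without number 3 and 0.148 after quantile normalization). The summed level of dim genes differed between the genotypes, as given above, and its part in these rises was not tested.

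**Figure D4:**
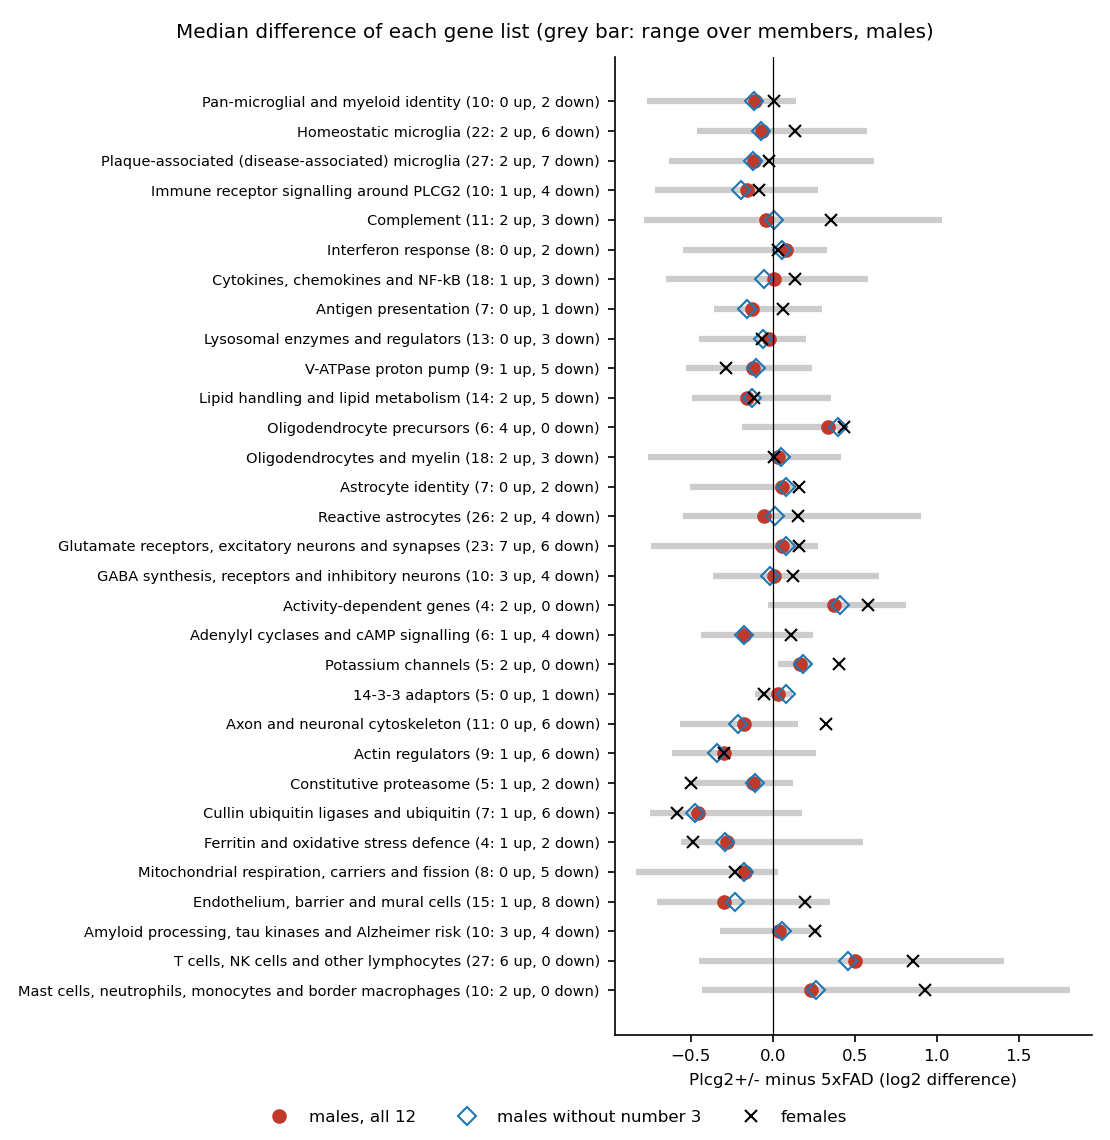
For each gene list with at least 4 measured members, points give the median log2 difference between Plcg2+/- and 5xFAD mice in all 12 males (red), in males without number 3 (blue) and in females (crosses), and grey bars span the members in males (counts of members measured, higher and lower stand beside the name). Cullin ligase and actin genes have negative medians in both sexes, and endothelial and axon genes have negative medians in males and positive ones in females, the endothelial one at 0.20 in females as deposited and -0.028 after quantile normalization.

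Among genes that are not dim, the 8 in which number 3 lay farthest from the mean of the other 5 Plcg2+/- males included Lag3, C1qb, Dnm1l, Inpp5f, Pik3r1, Cd74 and Cntf, and in each of these it was higher than all 5. Inpp5f, an inositol phosphatase, was at 1138 to 1545 in 5xFAD males, 563 to 813 in the other 5 Plcg2+/- males and 1657 in number 3. Lag3, an immune checkpoint receptor, was at 136 to 177, 64.9 to 127 and 238 in the same order. For both genes number 3 was above the controls. Lag3 was not called with number 3 (-0.55 ± 0.23, adjusted p = 0.0619) and was without it (-0.78, adjusted p = 0.00139).

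Without number 3, 103 genes were gained and 7 were lost. The 7 lost were Abcb1a, Atp6v1g1, Cd34, Cd8a, Dnajc5, Eomes and Gpr17. Of the gained genes those with the largest differences were Tgm1, Nos2, Tcl1, Cd3e, Lag3 and Cntf. Tgm1, Nos2, Tcl1 and Cd3e are dim, and Cntf, a growth factor for neurons and oligodendrocytes, was at 32.4 to 57.4 in 5xFAD males, 14.2 to 36.1 in the 5 Plcg2+/- males and 53.8 in number 3. Cltc, the clathrin heavy chain, and Slc8a1, the sodium-calcium exchanger, rose in both fits (0.56 ± 0.11 and 0.44 ± 0.1), but number 3 held for both the lowest value of its group: 13407 against 19919 to 25461 for Cltc, and 2957 against 4100 to 5117 for Slc8a1. Cltc was among the 12 highest differences. Other genes in the group of 12 highest were Slc2a5, the fructose transporter of microglia (0.53 ± 0.099, adjusted p = 0.00048), P2ry1, a nucleotide receptor (0.55 ± 0.095, adjusted p = 0.00029), Ms4a4a (0.67 ± 0.18, adjusted p = 0.00679) and Trim17 (0.54 ± 0.13, adjusted p = 0.00267). For P2ry1 number 3 had the highest value of all 12 males, 121, and the groups did not overlap. Ccnh, a cyclin of the transcription machinery, was among the 12 lowest, at 1113, 1330 and 1575 in 5xFAD males against 625, 751 and 1192 in Plcg2+/- males (-0.78 ± 0.15, adjusted p = 0.000534).

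Whether the genotype difference itself differed between the sexes was tested as an interaction, the difference in males minus that in females. It was called in 166 genes (21.9%), negative in 115 and positive in 51, a balance that depended on scaling (78 and 109 after centring, 79 and 97 after quantile normalization). In females total counts of the genotypes did not overlap, 953461 to 1239109 in 5xFAD and 1773331 to 1897264 in Plcg2+/- mice, and their part in the interaction was not tested. Of the 166 genes 18 were called lower in males and higher in females, 3 the reverse, 21 lower in males and not called in females, and 65 higher and 34 lower in females and not called in males. Flt1 gave the widest gap of the vessel genes, with -0.71 in males and 0.54 in females (interaction -1.25 ± 0.19, adjusted p = 0.000181). Esam (-0.68, adjusted p = 0.00175), Emcn (-0.41, adjusted p = 0.00484) and Vegfa (-0.37, adjusted p = 0.00733) were also more negative in males. For Cldn5 the values were -0.66 and -0.62, with an interaction of -0.041 ± 0.21 that was not called (adjusted p = 0.907).

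Of the 11 axon genes 8 had an interaction, among them Nefl, the light neurofilament chain, called lower in males (-0.31) and higher in females (0.32), and Map2, at -0.56 in males and 0.034 in females (interaction adjusted p = 0.0138). Camk2a, a kinase of excitatory synapses, was not called in males (-0.15, adjusted p = 0.0558) and rose in females (0.45), with an interaction of -0.60 ± 0.086 (adjusted p = 0.00012). After quantile normalization Camk2a was called lower in males (-0.18, adjusted p = 0.0294). Adcy1 was at -0.37 in males and 0.30 in females, and Shc3, a neuronal adaptor, at -0.31 and 0.47 (interaction adjusted p = 0.00012 and 0.00012). Mbp was at -0.64 in males and -0.17 in females (interaction adjusted p = 0.00741). Proteasome genes went the other way, with 4 of 5 called for the interaction: Psmd6 was at 0.086 in males and -0.38 in females (interaction adjusted p = 0.000125). Tmsb4x fell in both sexes, less in males, at -0.62 and -0.95 (interaction adjusted p = 0.0217). Itgax, Fth1 and C4a/b had the same direction in both sexes and no called interaction (adjusted p = 0.356, 0.283 and 0.476). Among the 10 smallest interaction p-values were also Rnf10, Prkag1, a subunit of the energy sensor AMP kinase, Cables1 and Ptpn11, the phosphatase SHP2, with interactions of -0.74, 0.51, -0.49 and -0.51. Without number 3 the interaction was called in 235 genes, 162 of them among the 166.

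The same animal numbers on the Neuropathology panel gave a second measurement of the 12 males with other probes, not of other mice. Total counts were 865095 to 1274953 in 5xFAD males and 1119119 to 1587858 in Plcg2+/- males (exact permutation test, two-sided, p = 0.0628). There 431 of 760 genes (56.7%) differed in males, 140 higher and 291 lower, and after centring, which moved the median gene by 0.224, 307 were higher and 172 lower. Of 251 genes on both panels 117 were called on the Glial panel, of which 85 were called the same way on the other, 21 were not called and 11 were called in the opposite direction. Vegfa (-0.86), Bcas1 (-0.77), Cldn5 (-0.94), Cd9 (-0.73), C1qb (-0.80), Pik3r1 (-1.40), Dnm1l (-1.08) and Egr1 (0.86) kept their direction and call. Differences of Map2 (-1.83 on the Neuropathology panel, -0.56 on the Glial panel) and Sox9 (-1.36 and -0.28) were larger in size there. Flt1 was not called on the Neuropathology panel (-0.067, adjusted p = 0.7), nor were Fos (0.52, adjusted p = 0.0536) and Nefl (-0.052, adjusted p = 0.666). Itpr1 (0.087, adjusted p = 0.208), Spi1 (-0.105, adjusted p = 0.325) and Gal3st1 (-0.197, adjusted p = 0.197) lost the call there too. So did Gnai1 (0.041, adjusted p = 0.553), Cspg4 (0.30, adjusted p = 0.108), Esam (-0.18, adjusted p = 0.0821) and the dim gene Cd8a (0.88, adjusted p = 0.0723).

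Genes called in opposite directions were Adcy5, lower on the Glial panel and higher on the Neuropathology panel (-0.44 and 0.40), and 10 that were higher on the Glial panel and lower on the other, among them Slc8a1, Rasgrp1, Ubqln1, Cnr1, Camk2g, Map2k1, Syt1, Rapgef2 and Sqstm1. Slc8a1 was at 0.44 and -1.02, Ubqln1, a ubiquitin shuttle, at 0.33 and -0.84, and Syt1, the calcium sensor of synaptic vesicles, at 0.19 and -1.01 (0.07 and not called on the Glial panel after quantile normalization). Aif1, lower on the Glial panel, was at 0.28 on the other and not called (adjusted p = 0.527), where it was dim, with a mean of 13.1 normalized counts against 326 on the Glial panel. Also, Csf1r, not called on the Glial panel, was at -0.63 (adjusted p = 0.00164). P2ry12 and Itgam, not called on the Glial panel either, were called higher there (0.40 and 0.38, adjusted p = 0.000779 and 0.0168). The microglial marker Cx3cr1, also not called on the Glial panel, was called lower there (-1.36, adjusted p = 0.000118). Of 7 pan-microglial genes there 1 rose and 2 fell, of 5 homeostatic genes 1 rose and 2 fell, and of 7 plaque-associated genes 1 rose and 4 fell. Among shared genes not called on the Glial panel, 17 were called higher on the other, 45 lower and 72 not. With both panels centred or quantile normalized 13 and 16 genes were called in opposite directions, and Adcy5, Camk2g, Rapgef2, Slc8a1 and Ubqln1 were among them each time. The sequences of the 2 sets of probes were not given, and the part of the probes in these differences was not tested.

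**Figure D5:**
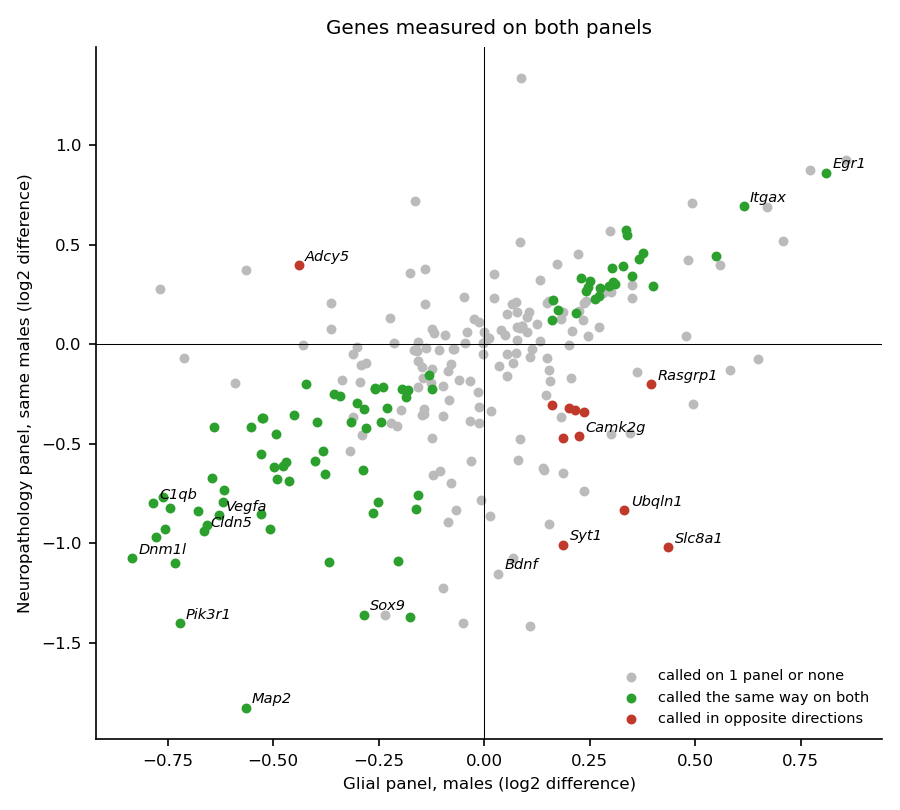
Points are the 251 genes on both panels, with the log2 difference between Plcg2+/- and 5xFAD males on the Glial panel (x axis) and on the Neuropathology panel (y axis) in the same mice. Green marks the 85 genes called the same way on both, red the 11 called in opposite directions and grey the others, and the falls on the Neuropathology panel reach -1.83 (Map2).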

How the data were processed

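Total RNA of mouse cortex was counted on nCounter panels, which tag each transcript with a coloured probe without amplification. The deposited values are log2 normalized counts, per the labels; the authors' normalization steps are not given in the sources used here. Every value matched a whole count times 1 factor per mouse within 0.05, which gave the total counts. Precision is limited by the number of mice and, for dim genes, also by low counts. Groups, sex and animal numbers came from the titles, and every sample column was used (0 were left out). Nothing beyond the animal numbers says that samples came from separate extractions, so p-values measure the spread between these samples.

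A limma 3.58.1 model (R 4.3.3) fitted 4 means, genotype by sex, to the 24 mice of the Glial table, with no covariate, and moderated variances by eBayes. The male contrast and the interaction with sex were adjusted by Benjamini-Hochberg over 757 genes at 0.05. The Neuropathology table was fitted the same way over 760 genes. Genes with a mean under 20 normalized counts were called dim. Values were summarised with Python 3.11.15, numpy 2.4.6, scipy 1.17.1 and pandas 2.3.3, and drawn with matplotlib 3.10.9. The fit was tested on simulated data. Promoter sequences are from RefSeq (build GRCm38.p6), where 558 of the 757 symbols had an entry.

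Named genes are the 12 highest and 12 lowest called differences among genes that are not dim, the 5 highest and lowest among dim genes, the 5 smallest p, up to 4 of smallest p in each list, the 10 smallest interaction p, the 8 genes where number 3 lay farthest from its group, and the 6 largest differences gained without it. The comparison, the lists and this rule were chosen with earlier results of these data known. Outside the rule, and after their values were seen, Abcb1a, Atp6v1a, Atp6v1g1, Btrc, Camk2g, Cd34, Cfi, Clec7a, Cnr1, Csf1r, Cul1, Dnajc5, Esam, Gad2, Gfap, Gpr34, Gsn, Itgam, Map2k1, Mog, P2ry12, Pecam1, Rapgef2, Rasgrp1, Rock2, Slc17a7, Slc8a1, Sptan1, Sqstm1, Syn1, Syt1, Trem2, Tyrobp and Ubqln1 were named. Some genes that the rule names are not reported here. Alternatives were the scaling, dim genes left out or set to a floor, other variance models, array weights, a test on recovered counts (voom), males alone, a minimum difference, the other panel and each male left out.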

Additional observations from a re-analysis of the deposited data

Results flagged for a closer look

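Among the genes named here and the further genes examined with them, 169 in all, each of the 338 groups of 6 males was examined for a mouse whose distance from its nearest neighbour took more of the range of its group than Dixon's 95% critical value for 6 samples allows. It was met in 33 groups, 28 of them through male number 3 of the Plcg2+/- group. Chance meets it in about 1 group of 20, but some of these genes were named for the position of number 3, so the counts are not set against chance. Over all 757 genes number 3 met it in 84 and each other male in 1 to 6.

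Number 3 was the high mouse, with log2 normalized counts as follows: Aif1 8.48, Apoe 13.14, Atp6v1e1 12.20, Atp6v1h 12.43, C1qb 10.83, Cul2 9.72, Dlat 10.49, Dnm1l 10.79, Gria1 10.93, Gsk3b 11.32, Ina 11.53, Inpp5f 10.69, Lamp1 11.22, Map2 12.72, Mbp 11.75, Pik3r1 10.88, Rnf10 11.15, Skp1a 11.31, Slc25a4 13.37 and Rock2 10.74. It was the low mouse in these genes, on the same scale: Aplp2 13.16, Cspg4 7.28, Itpr1 12.05, Pdgfra 8.70, Ptprz1 11.25, Slc2a5 7.76, Ugt8a 8.69 and Syn1 13.30. Of the other flags, number 1177 of the 5xFAD males was low for Bdnf (log2 value 8.58) and high for Vim (8.66), number 1182 was low for Ccl12 (5.99), and in the Plcg2+/- group number 46 was high for Trim17 (7.11) and number 11 low for Gpr34 (8.51).

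The genotype difference in males minus that in females passed the interaction test (limma, Benjamini-Hochberg over 757 genes) in 44 of the same genes. It was negative, on the log2 scale, in these: Adcy1 -0.67, Adcy5 -0.55, Akt1 -0.26, C1qc -0.52, Cables1 -0.49, Camk2a -0.60, Emcn -0.41, Flt1 -1.25, Gal3st1 -0.51, Gpr17 -0.77, Grm2 -0.61, H2-D1 -0.36, Hadh -0.32, Ina -0.61, Map2 -0.60, Mapt -0.33, Mbp -0.47, Mertk -0.37, Nefl -0.63, Pros1 -0.52, Ptpn11 -0.51, Rnf10 -0.74, Shc3 -0.78, Sox9 -0.74, Vegfa -0.37, Rapgef2 -0.27, Esam -0.68, Abcb1a -0.52, Csf1r -0.36 and Sptan1 -0.79. It was positive in these: Acat1 0.20, Arpc1a 0.29, Atp6v1d 0.19, Prkag1 0.51, Psmc2 0.24, Psmc6 0.44, Psmd14 0.38, Psmd6 0.47, S100a10 0.55, Skp1a 0.37, Tmsb4x 0.34, Txn1 0.33, Cnr1 0.40 and Clec7a 0.62. The female groups differed in total counts without overlap, and the part of that difference in these values was not tested.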

How the results depend on the processing

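The count of genes called in males, 308, stayed within 1.5 times under every other setting run, except a test for differences over 0.25 on the log2 scale, which called 18 genes, 3 higher and 15 lower. Leaving out 1 male at a time gave 251 to 404 genes, of which 404 was the fit without number 3 and 251 to 299 the other 11. The interaction gave 149 to 235 genes in the same way (149 to 169 for males other than number 3), 256 with array weights and 166 as fitted. The Neuropathology panel gave 384 to 493 (384 to 430 for the other males). Of the 109 named genes called in males, 94 lost the call under the minimum difference, 12 under quantile normalization, 5 under centring and 3 without number 3, and none of these changed sign. Changes of sign occurred on the Neuropathology panel alone. It held 54 of the 109 genes, of which 9 lost the call there and 4 changed sign. These 4 had log2 differences there of 0.40 (Adcy5), 0.28 (Aif1, a dim gene there), -0.076 (Dlx2) and -0.30 (Tmem119), and only Adcy5 was called there. Outside the 109, Bdnf (-1.15) and Csf1r (-0.63) changed sign and were called there, but not on the Glial panel. Some genes named after their values were seen were called on both panels with opposite signs. On the Neuropathology panel these were Slc8a1 -1.02, Camk2g -0.46, Cnr1 -0.34, Map2k1 -0.32, Rapgef2 -0.47, Rasgrp1 -0.20, Sqstm1 -0.31, Syt1 -1.01 and Ubqln1 -0.84. The cause was not tested. Scaling moved the median gene of that panel by 0.224 (centring) and 0.184 (quantile), and its split from 140 higher and 291 lower to 307 and 172, and 234 and 198. The fits without number 3 under centring or quantile normalization, and those of the Neuropathology panel under other scalings, as well as list medians and calls on both panels under each scaling, were chosen after seeing the data. No paired analysis was possible because the genotypes share no animal number. Low counts limit what dim genes can show.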

Other observations

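Activity-dependent genes that are on the Neuropathology panel and not on the Glial panel were looked at after Egr1 and Fos had been found higher, so this choice followed their values. Those named here are not all of them. The whole list had 9 genes on that panel, of which 4 were called higher and 2 lower as deposited, against 140 and 291 of all 760 genes. Arc, a cytoskeletal protein of active synapses, was at 449.5, 643 and 765 normalized counts (lowest, median, highest) in 5xFAD males and 852, 1116 and 1684 in Plcg2+/- males. Every Plcg2+/- male, number 3 included, was above every control (0.89 ± 0.18, limma adjusted p = 0.000417 over 760 genes). Egr2, a transcription factor, was at 21.5, 36.1 and 41.0 in 5xFAD males against 39.5, 51.2 and 92.3 in Plcg2+/- males (0.76 ± 0.27, adjusted p = 0.019), and Npas4, a neuronal factor induced by calcium entry, at 329, 558 and 870.2 in 5xFAD males against 616, 878 and 1028 in Plcg2+/- males (0.68 ± 0.19, adjusted p = 0.00535). Homer1, a scaffold of glutamate receptors, was at 3244, 3929 and 4717 in 5xFAD males against 2724, 3091 and 4159 in Plcg2+/- males (-0.32 ± 0.11, adjusted p = 0.0198), and number 3 held the highest value of its group. Differences in this paragraph are as deposited, and centring and quantile normalization moved the median gene of that panel by 0.224 and 0.184. Bdnf, not called on the Glial panel, was at 197, 257 and 349 in 5xFAD males against 72.5, 108 and 298 in Plcg2+/- males on the Neuropathology panel (-1.15 ± 0.28, adjusted p = 0.00174), where number 3, at the top of its group, lay inside the control range.

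In their deviations from the mean of the other mice of their own sex and genotype, number 3 of the males and number 12 of the Plcg2+/- females correlated across genes at r = 0.737 on the Glial panel (692 genes) and 0.908 on the Neuropathology panel (693 genes). Genes are not independent replicates, and these values carry no test.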
